A study of Mus musculus with 6 samples.

Results

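In untreated mouse embryonic stem cells, 12131 ATAC-seq peaks lay inside protein-coding genes but far from any promoter. They were taken from the peak list of the untreated condition as the peaks on chromosomes 1 to 19 that lay more than 10 kb from every curated RefSeq transcription start site (TSS) and overlapped, by at least 1 bp, the span of a protein-coding gene. They made up 30.2% (Wilson 95% interval 29.7 to 30.6) of the 40228 autosomal peaks, out of 41014 peaks on all chromosomes, and their centres fell for the most part in introns. Below they are named intragenic distal peaks. All intervals cover counting error only, and peaks within 1 gene are not independent of each other.

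ATAC-seq was performed on 2 replicates of untreated V6.5 cells, a mouse embryonic stem cell (mESC) line grown on irradiated mouse embryonic fibroblasts in medium with serum and leukaemia inhibitory factor (LIF). The study's methods also list the inhibitors CHIR99021 (of the kinase GSK3) and PD0325901 (of MEK) in the medium and name no feeder cells. The other 4 of the 6 samples, ZBTB21-degron mESCs at 0 and 6 h of the auxin IAA with 2 replicates each, were not analysed here. The treatment text shared by all labels describes doxycycline given to degron cells, whereas the labels of the untreated libraries name V6.5 cells with no treatment. The authors deposited 1 pooled list with a score for each peak, so the replicates could not be compared, the depth of the libraries is unknown here, and nothing was tested.

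Tn5 transposase inserts its adapters where DNA is not wrapped in nucleosomes, so ATAC-seq peaks mark promoters, enhancers, insulators and other places held open by bound proteins. Enhancers often lie in introns, either of the gene they act on or of a neighbour, and in mESCs many are bound by OCT4, SOX2, ESRRB and KLF factors. CTCF, the protein at which cohesin halts loop extrusion, also binds many sites inside genes. An accessible site by itself tells neither which of these it is nor which gene it acts on.

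To show what such sites look like, 4 windows of 300 bases from the centres of intragenic distal peaks were chosen: the peak with the highest score of all (in Fbxo46), the one with the highest score in Esrrb, the one with the highest score in another pluripotency gene (Etv4), and the one with the highest score among those that hold the CTCF core consensus (in Ccdc180). They are written 5′ to 3′ on the plus strand of GRCm38, from the RefSeq assembly, and capitals mark a match to a motif searched here.
Fbxo46, chr7:19131410-19131709: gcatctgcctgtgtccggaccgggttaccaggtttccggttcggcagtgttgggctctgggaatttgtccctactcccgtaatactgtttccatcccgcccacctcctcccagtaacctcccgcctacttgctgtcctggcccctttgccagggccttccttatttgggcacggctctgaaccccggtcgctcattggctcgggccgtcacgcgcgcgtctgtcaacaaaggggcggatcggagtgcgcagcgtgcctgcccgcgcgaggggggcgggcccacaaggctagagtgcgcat
Esrrb, chr12:86501791-86502090: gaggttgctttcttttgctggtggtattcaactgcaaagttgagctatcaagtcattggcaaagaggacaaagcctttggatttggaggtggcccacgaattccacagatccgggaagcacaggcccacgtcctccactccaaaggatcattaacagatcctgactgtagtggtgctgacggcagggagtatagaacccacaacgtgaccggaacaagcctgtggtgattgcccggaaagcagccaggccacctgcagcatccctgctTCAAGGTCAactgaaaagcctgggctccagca
Etv4, chr11:101772422-101772721: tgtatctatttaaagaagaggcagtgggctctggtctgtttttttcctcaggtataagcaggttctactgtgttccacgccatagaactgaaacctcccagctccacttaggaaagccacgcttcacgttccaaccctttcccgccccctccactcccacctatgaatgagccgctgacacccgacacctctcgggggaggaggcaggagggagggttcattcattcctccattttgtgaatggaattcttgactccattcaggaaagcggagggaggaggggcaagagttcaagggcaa
Ccdc180, chr4:45941587-45941886: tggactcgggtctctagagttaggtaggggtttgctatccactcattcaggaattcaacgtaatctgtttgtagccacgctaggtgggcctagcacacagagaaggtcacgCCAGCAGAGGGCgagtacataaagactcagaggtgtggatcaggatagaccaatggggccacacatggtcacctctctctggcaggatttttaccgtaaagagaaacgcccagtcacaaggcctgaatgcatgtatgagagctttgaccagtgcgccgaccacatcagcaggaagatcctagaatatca
The Fbxo46 window lay in the first intron, 11.4 kb from the nearest TSS, had a score of 946 and a GC content of 64.3%, and held 25 CpG dinucleotides and none of the motifs. The Esrrb window lay in the third intron, 79.98 kb from the nearest TSS. With a score of 842 and a GC content of 53.0%, it held 7 CpGs and 1 match to the binding motif of ESRRB itself, at positions 269 to 277. The Etv4 window, 12.3 kb from a TSS in a late intron, had a score of 828 and no match to the motifs. The Ccdc180 window, also in a late intron and 23.3 kb from a TSS, had a score of 866 and the CTCF core consensus at positions 112 to 123. The Fbxo46 window was thus richer in CpG than most intragenic distal peaks, and the other 3 windows had a GC content within a few points of the class median.

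The source of the list was checked against marker genes. Of 12 mESC markers, 6 had a peak within 1 kb of a TSS, namely Pou5f1, Nanog, Zfp42, Prdm14, Sall4 and Dppa5a, whereas Sox2 and Klf4 had none there. Intragenic distal peaks lay in 3 of the 12, Esrrb, Tfcp2l1 and Zfp42. Pou5f1, Sox2, Nanog, Klf4, Tdgf1, Dppa5a and Lin28a have no sequence beyond 10 kb of every TSS, so they could not hold one. Of 12 markers of fibroblasts, the cells used as feeders, 2 (Thy1 and Pdgfrb) had a promoter peak and 3 held an intragenic distal peak: Fbn1 held 3, and Col1a1 and Pdgfrb held 1 each. The part of feeder cells in these peaks was not tested. Thy1 and Lum likewise have no sequence beyond 10 kb of every TSS. Of all 12165 protein-coding genes that have such sequence, 40.3% held an intragenic distal peak and 3706 had a promoter peak. The markers without such sequence fall outside this set, so the promoter counts of the markers have no matched share here.

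Beyond 50 kb of TSSs, gene bodies were denser in peaks than the sequence between genes, and the ratio of the densities grew with distance. At 10 to 50 kb the densities inside and outside genes were close. Beyond 10 kb of every TSS, 38.1% of the sequence lay inside protein-coding genes, and it held 47.7% (47.1 to 48.3) of the peaks. Inside genes the density was 16.1 peaks per Mb (exact Poisson 95% interval 15.9 to 16.4), against 10.9 (10.7 to 11.1) outside, a ratio of 1.49. This ratio was not adjusted for distance, and more of the sequence outside genes lay far from TSSs. At 200 to 500 kb lay 249.7 of its 1222.7 Mb, against 78.7 of the 751.6 Mb inside genes. At 10 to 20 kb from a TSS the densities were 23.7 inside and 23.8 outside, a ratio of 0.998. At 50 to 100 kb they were 15.5 and 12.1, and at 200 to 500 kb 5.74 and 3.71. Beyond 500 kb, 59 peaks inside genes gave 3.33 per Mb (2.53 to 4.29) and 309 outside gave 1.99 (1.78 to 2.23), a ratio of 1.67. The intervals inside and outside genes overlapped up to 50 kb and did not overlap in any bin beyond 50 kb. In 300-bp windows without a peak, repeats covered 28.0% of the sequence inside genes and 38.7% outside. The median GC content of these windows was 42.3% inside and 40.3% outside. The densities were not adjusted for either, and their part in the ratio was not tested.

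**Figure D1:**
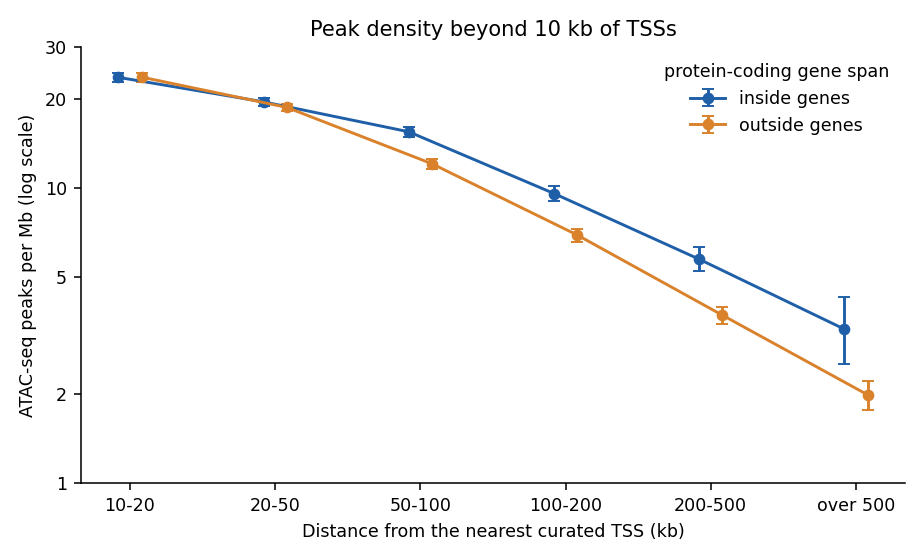
ATAC-seq peaks per Mb of sequence (log scale) by distance from the nearest curated TSS, for sequence inside (blue) and outside (orange) protein-coding genes, with exact Poisson 95% intervals. The densities meet at 10 to 20 kb (23.7 and 23.8 per Mb) and part further out, to 3.33 and 1.99 per Mb beyond 500 kb.

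The median intragenic distal peak lay 32824 bp from its nearest TSS, and the farthest, in the low-density lipoprotein receptor relative Lrp1b, lay 1536321 bp away. For 7642 of the peaks (63.0%, 62.1 to 63.9) the nearest TSS belonged to a gene that held the peak, so for the other peaks the nearest promoter was that of another gene. The peaks just inside and just outside the limit of 10 kb were much alike: the 858 peaks at 10 to 12 kb had a median width of 523 bp and a median score of 692.5, and the 958 peaks inside genes at 8 to 10 kb had 537 bp and 697.

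Intragenic distal peaks were narrower and lower in score than promoter peaks, and close to other distal peaks. Their median width was 517 bp (5th to 95th percentile 278 to 903), against 747 bp (379 to 1422) for the 6166 peaks within 1 kb of a TSS and 529 bp (287 to 945) for the 10531 peaks that lay outside genes at 10 to 100 kb. The score, a whole number of at least 540 in this list, had a median of 687 in the intragenic distal peaks, 740 at promoters and 693 outside genes at 10 to 100 kb. Only 26 intragenic distal peaks (0.214%) had a score of at least 900, whereas 517 promoter peaks (8.38%) did. Across the 12131 peaks, wider peaks tended to have higher scores (Spearman's correlation 0.31, Pearson's r 0.24), while the distance from the TSS hardly varied with score (Spearman's correlation -0.02) or width (-0.03). These peaks come from 1 list, and the score and the width rest on the same reads.

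**Figure D2:**
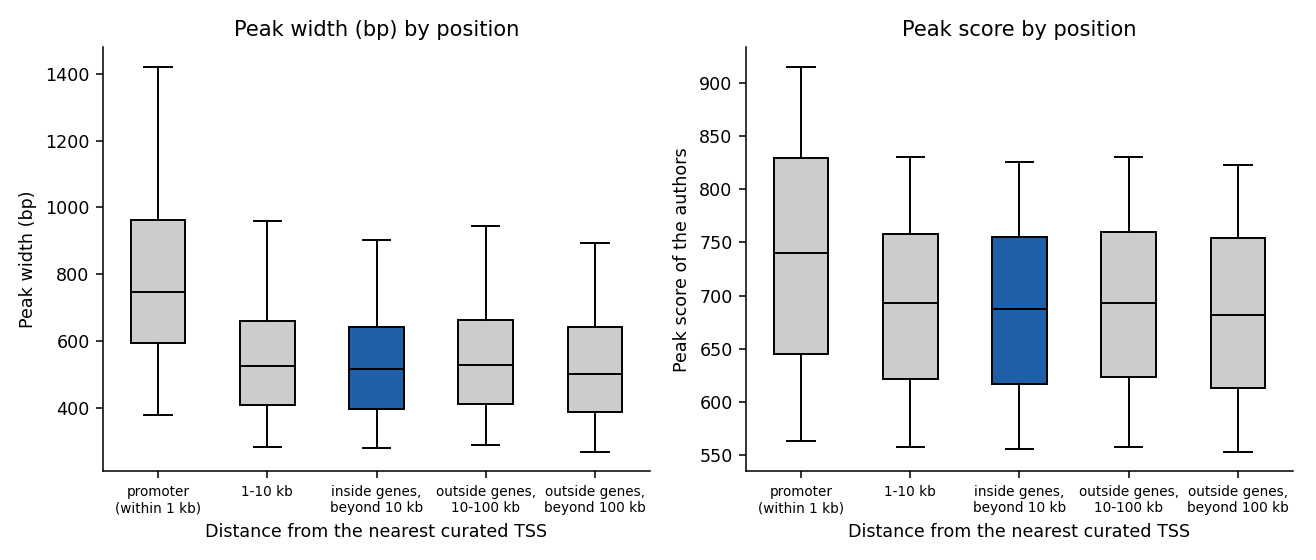
Peak width in bp (left) and the authors' peak score (right) in 5 classes of position relative to curated TSSs and genes. Boxes give the quartiles with the median as a line, whiskers the 5th and 95th percentiles; intragenic distal peaks (blue, medians 517 bp and 687) lie with the other distal classes and below promoter peaks (747 bp and 740).

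The median gap from an intragenic distal peak to the nearest other peak was 10798 bp, against 9431 bp over all autosomal peaks. A neighbour lay within 10 kb for 47.5% of them and within 1 kb for 7.29%, against 51.8% and 8.27% of all autosomal peaks.

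In base composition the peaks stood between promoters and the rest of the gene body. The central 300 bp had a median GC content of 52.0%, against 60% in promoter peaks and 42.3% in the 2457942 windows of 300 bp that tiled the same gene sequence and held no peak. The median number of CpGs was 4, and it was 18 in promoter peaks. Windows with 15 or more CpGs made up 185 of the intragenic distal peaks (1.53%) and 60.2% of the promoter peaks. Peaks outside genes at 10 to 100 kb were much alike, with medians of 51.7% GC and 4 CpGs, and 1.81% with 15 or more. Those at 1 to 10 kb from a TSS had medians of 52.7% GC and 5 CpGs. Repeats that the assembly marks covered on average 16.9% of the windows, while they covered 27.8% of all the gene sequence in which such a peak could lie. In 1161 peaks (9.57%) repeats nevertheless covered the larger part of the window.

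Of the 10 motifs, the CTCF core consensus had the highest ratio of its share in intragenic distal peaks to its share in the rest of the gene body. It was found in 682 of the 12131 windows (5.62%, 5.23 to 6.05) and in 0.122% of the tiles, a ratio of 46.0. The share was 1.31% (1.06 to 1.63) in promoter peaks, 6.21% (5.72 to 6.74) in the 8646 peaks at 1 to 10 kb from a TSS, 5.44% (5.02 to 5.89) in peaks outside genes at 10 to 100 kb and 2.54% (2.02 to 3.20) in the 2754 peaks outside genes beyond 100 kb. Each motif was searched on both strands, and a match is a run of letters, not a bound site. The motifs differ in length and in how often they occur in the tiles, which limits the ratio each can reach. The ratios therefore do not rank the factors by enrichment. The KLF motif GGGNGTGGC was present in 7.90% of the intragenic distal windows and 1.04% of the tiles. The GC box GGGCGGGG, a motif of SP and KLF factors, was present in 5.70%, against 0.724% of the tiles and 23.0% of promoter peaks. AP-1 (TGACTCA) matched in 9.32%, against 4.84%, and ESRRB (TCAAGGTCA) in 1.39%, against 0.673%. The octamer ATGCAAAT, bound by OCT factors, matched in 2.90% (2.62 to 3.22), against 2.29% of the tiles, and in 5.12% (4.36 to 6.01) of the peaks outside genes beyond 100 kb. The OCT4-SOX2 composite motif, which can contain the octamer, was found in 18 windows (0.148%, 0.0939 to 0.234), and in 0.0657% of the tiles. NRF1 (GCGCNTGCG) and YY1 (AAGATGGCG), motifs of CpG island promoters, matched in 0.577% and 0.396% of the intragenic distal windows and in 8.03% and 2.74% of promoter peaks. Their shares of the tiles were 0.137% and 0.213%.

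**Figure D3:**
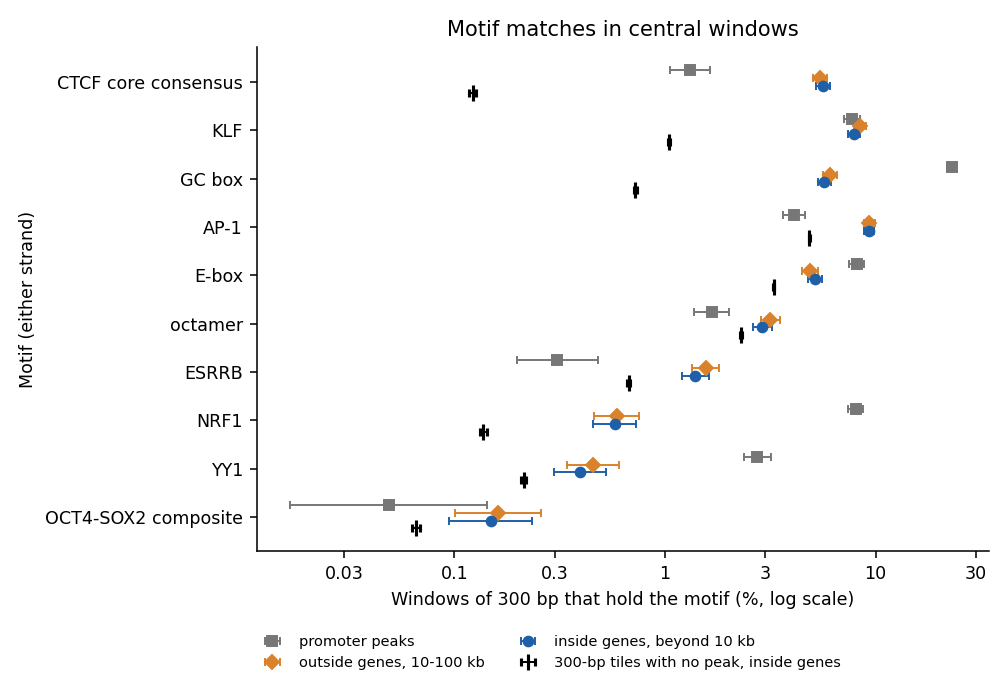
Share of 300-bp windows that held each of 10 motifs on either strand (percent, log scale, Wilson 95% intervals) in promoter peaks (grey), peaks outside genes at 10 to 100 kb (orange), intragenic distal peaks (blue) and tiles with no peak inside genes (black). The blue and orange points nearly coincide. On the log scale, the gap between blue and black is widest for the CTCF core consensus (5.62% and 0.122%).

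Because peaks were richer in GC than the tiles, the shares were also compared between windows of the same GC content, a comparison added after the first shares were seen. At a GC content of 50 to 55%, 331 of 5305 intragenic distal windows (6.24%) and 0.200% of the tiles held the CTCF core consensus, a ratio of 31.3. In the same bin the ratio was 3.54 for KLF, 2.93 for the GC box, 1.77 for AP-1 and 1.72 for ESRRB. For the octamer it was 3.70 (2.83% and 0.765%), above the ratio of 1.27 over all GC contents. The E-box CACGTG, whose ratio over all windows was 1.57 (5.16% and 3.29%), was at 5.26% and 5.24% here, a ratio of 1.00, and YY1 was at 0.320% and 0.452%. At a GC content of 45 to 50% the ratios were 28.8 for CTCF, 2.49 for the octamer and 1.05 for the E-box. In these bins the E-box share of the peaks was thus near that of the tiles, while the shares of CTCF, KLF and octamer motifs were above it.

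Scores varied little with the CTCF consensus. The median score of peaks that held it was 696, against 686 in the other intragenic distal peaks, with medians of 502.5 and 518 bp in width, and 0 of the 682 had a score of at least 900, which allows a share of up to 0.440%, above the 0.227% of the other peaks. Peaks with a GC box had a median score of 706, and 1.30% of them reached 900, against 0.149% of those without it. In 4 groups of equal size from low to high score, the share with the octamer was 2.37%, 2.37%, 3.33% and 3.53%, and that with the CTCF consensus 4.19%, 6.03%, 7.09% and 5.18%.

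The share of peaks with the CTCF consensus was higher in later introns than in the first, with intervals that did not overlap between the first and the fourth or later introns. It was present in 2.91% (2.3 to 3.67) of the 2338 peaks centred in a first intron, in 3.58% (2.76 to 4.63) in the second, in 4.75% (3.65 to 6.17) in the third and in 7.12% (6.49 to 7.82) of the 5727 in the fourth or a later intron. In tiles without a peak the shares were 0.10%, 0.0999%, 0.121% and 0.132%. First-intron peaks lay closer to a TSS (median 24.8 kb) than those of the fourth or later introns (38.8 kb), and the order was the same in each bin of distance up to 200 kb. At 10 to 20 kb it was 2.62% (1.76 to 3.86) in the first intron, 5.95% (4.46 to 7.89) in the second or the third and 10.1% (8.52 to 11.8) in the fourth or later. At 20 to 50 kb the shares were 3.38%, 3.88% and 7.41%. At 100 to 200 kb they were 0 of 112 (at most 3.32%), 3.27% and 5.39%. At 200 to 500 kb the order did not hold, with 4 of 24 peaks (16.7%, 6.68 to 35.9) in the first intron, 2.22% and 2.92%. In exons the share was 7.59% (5.99 to 9.58).

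Most intragenic distal peaks were intronic, as was most of the sequence in which they could lie, and exons were denser in them than introns. By the peak centre in the longest curated transcript, 10717 (88.3%) lay in an intron, and introns made up 91.7% of the bases. Coding exons held 527 peaks (4.34%, 4.0 to 4.72) on 2.39% of the bases, a density of 29.3 per Mb against 15.6 in introns. These densities were not matched for distance from the TSS or for gene span. Peaks in all exons lay a median of 23.8 kb from a TSS, against 24.8 kb in first introns and 38.8 kb in the fourth or later. The 3′ untranslated regions held 303 peaks, or 21.2 per Mb, and 5′ untranslated regions 13. A further 532 peaks lay in the gene span but outside the transcript chosen, and the centres of 39 lay outside the span. In all, 1952 peaks (16.1%) overlapped an exon by at least 1 bp. The median score was 676 in coding exons and 687 in introns. First introns held 19.3% of the peaks on 17.4% of the bases. At 10 to 20 kb their density was 24.9 per Mb (23.3 to 26.6), against 22.0 (21.0 to 23.0) in later introns. At 100 to 200 kb the order was the other way, 7.24 (5.96 to 8.71) against 9.83 (9.21 to 10.5), and at 200 to 500 kb it was 3.28 (2.1 to 4.88) against 6.00 (5.42 to 6.61).

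A small share of the peaks lay at start sites that the curated annotation does not list. Within 1 kb of a TSS that RefSeq only predicts lay 514 peaks (4.24%, 3.89 to 4.61), and 1.55% of the bases lay there. These had a median width of 582 bp, against 514 bp for the others, and a median score of 696, against 686. Windows with 15 or more CpGs made up 7.39% of them and 1.27% of the others. Several of the strongest and widest peaks were of this kind. The peaks of Srl (score 934) and Pdzd7 (924), 2 of the 10 with the highest scores, and 4 of the 5 widest, in Ptprf, Etl4, Jakmip1 and Klf12, lay within 1 kb of one.

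The 10 intragenic distal peaks with the highest scores were in Fbxo46 (946), Srl (934), the potassium channel gene Kcnq1 (926), Rbms2 (925), Pdzd7, the retinal transporter gene Abca4 and Arhgef10l (924 each), the kinase gene Map4k1 (920), the potassium channel gene Kcnj6 (917) and Fam178b (916). A peak in Trim71 had the same score of 916 and was left out as Fam178b comes first by symbol; its GC content was 53.7%, and it held no motif. The widths of the 10 ran from 480 bp in Rbms2 to 990 bp in Fam178b, and the GC contents from 58.0% to 65.3%, above the median of the class. None of the 10 held the CTCF consensus, and 4 held a GC box (Srl, Map4k1, Kcnj6 and Fam178b). The widest peaks had low scores: the peak of 2196 bp in Ptprf had a score of 598, and those in Ccnjl (1954 bp), Etl4 (1934 bp), Jakmip1 (1901 bp) and Klf12 (1796 bp) had 548, 609, 587 and 551.

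The peaks lay in 4898 of the 12165 protein-coding genes that reach beyond 10 kb of every TSS (40.3%, 39.4 to 41.1). A single peak was found in 2352 of these host genes (48.0%), 2 to 4 in 1903, 5 to 9 in 508 and 10 or more in 135. The last held 1754 of the 12273 pairs of peak and host gene (14.3%). A single host was found for 12043 peaks, and the others lay where genes overlap. Per Mb of distal span, that is of the gene's span beyond 10 kb of every TSS, density fell with the length of that span. It was 26.6 (24.1 to 29.2) in genes with up to 10 kb, 18.9 (18.2 to 19.7) at 100 to 200 kb, 7.53 (7.0 to 8.10) at 500 to 1000 kb and 4.88 (4.36 to 5.45) above 1000 kb. Genes with a promoter peak had 18.1 intragenic distal peaks per Mb (17.5 to 18.7) and genes without one 15.3 (15.0 to 15.7). This order did not hold at every span: at 100 to 200 kb the densities were 18.9 with and 19 without a promoter peak, and above 1000 kb they were 3.59 and 5.30.

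**Figure D4:**
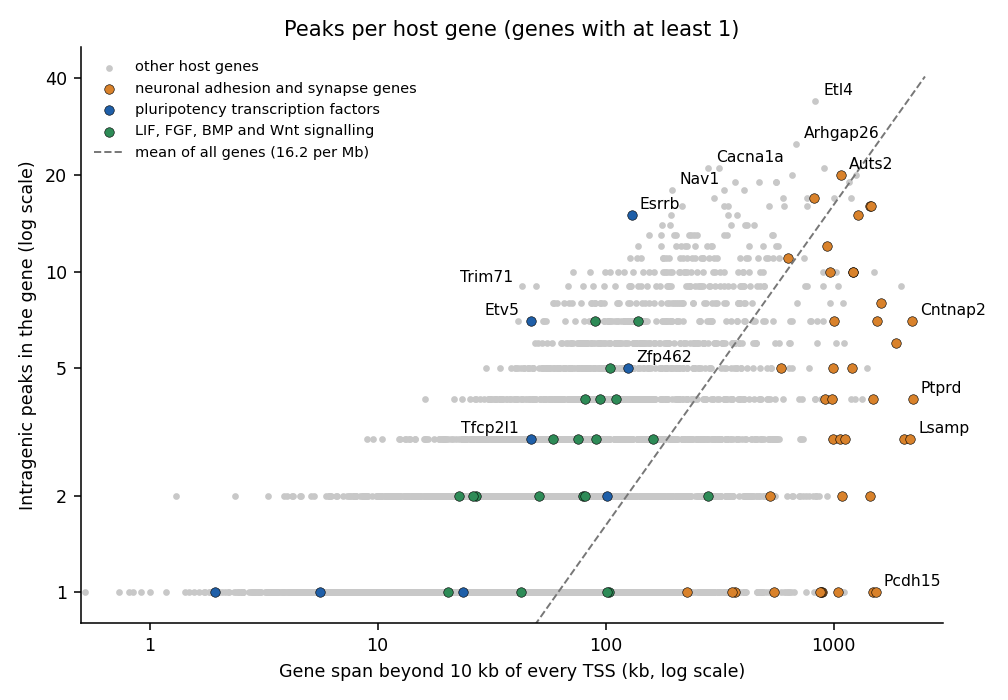
Intragenic distal peaks in each host gene (log scale) against the length of its span beyond 10 kb of every TSS (kb, log scale), for all 4898 hosts (grey) with pluripotency factors (blue), signalling genes (green) and neuronal genes (orange) marked. The dashed line is the mean of 16.2 per Mb over all genes, those without a peak included; Esrrb (15 peaks) and Etl4 (34) lie above it and the longest neuronal genes below.

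The gene with the most intragenic distal peaks was Etl4, known for its sickle tail mutant, with 34 in 830.9 kb of distal span. At the mean density of genes of its span class it would hold 6.26. Arhgap26 held 25. The calcium channel gene Cacna1a, the cytolinker gene Dst and the oxidoreductase gene Wwox held 21 each, and Auts2, the phosphodiesterase gene Pde4d and the receptor phosphatase gene Ptprg 20 each. Wwox and Cacna1a held equal numbers on very unequal lengths, at 2.33 and 7.46 peaks per 100 kb. Nav1, with 18 peaks, had the highest median score of the 20 genes with the most peaks, 778.

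Per length, the first among genes with 5 or more peaks was Trim71, which encodes an RNA-binding ubiquitin ligase of early embryos, with 9 peaks in 43.1 kb (20.9 per 100 kb, against 0.997 peaks at its class mean). Of its peaks 7 lay in the first intron, and 1 of these had a score of 916. The scores of all 9 ran from 630 to 916 with a median of 653. Next came the non-muscle myosin gene Myh14 with 9 peaks (18.1 per 100 kb), the amino acid decarboxylase gene Ddc with 7 (16.9), the AP-1 partner Jdp2 with 5 (16.7) and the ETS factor Etv5 with 7 (14.9). Podxl, Reep3, the netrin receptor gene Unc5b, Gm5820 and Clip2 followed, at 14.5 to 13.2 per 100 kb. Gm5820 lies inside Arhgap26, so its 8 peaks are among the 25 of that gene.

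Esrrb, which encodes an orphan nuclear receptor of the naive pluripotency network, held 15 intragenic distal peaks in 130.5 kb of distal span, where its class mean would give 2.47. They were spread from 25.1 to 143.2 kb along the gene, with 8 in the first intron, 6 in later introns and 1 in a coding exon. Their scores ran from 571 to 842 with a median of 728 (687 in the class as a whole), and 10 of the 15 were at 700 or more. Widths ran from 296 to 736 bp. In their central windows, 2 held the ESRRB motif (scores 602 and 842), 2 the octamer (770 and 796), 2 AP-1 (816 and 728) and 1 the CTCF consensus (692), while the exonic peak (764) had 22 CpGs and a GC box. No peak lay within 1 kb of a curated Esrrb TSS. The exonic peak and its nearest neighbour, in the second intron, lay 0.358 kb apart.

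**Figure D5:**
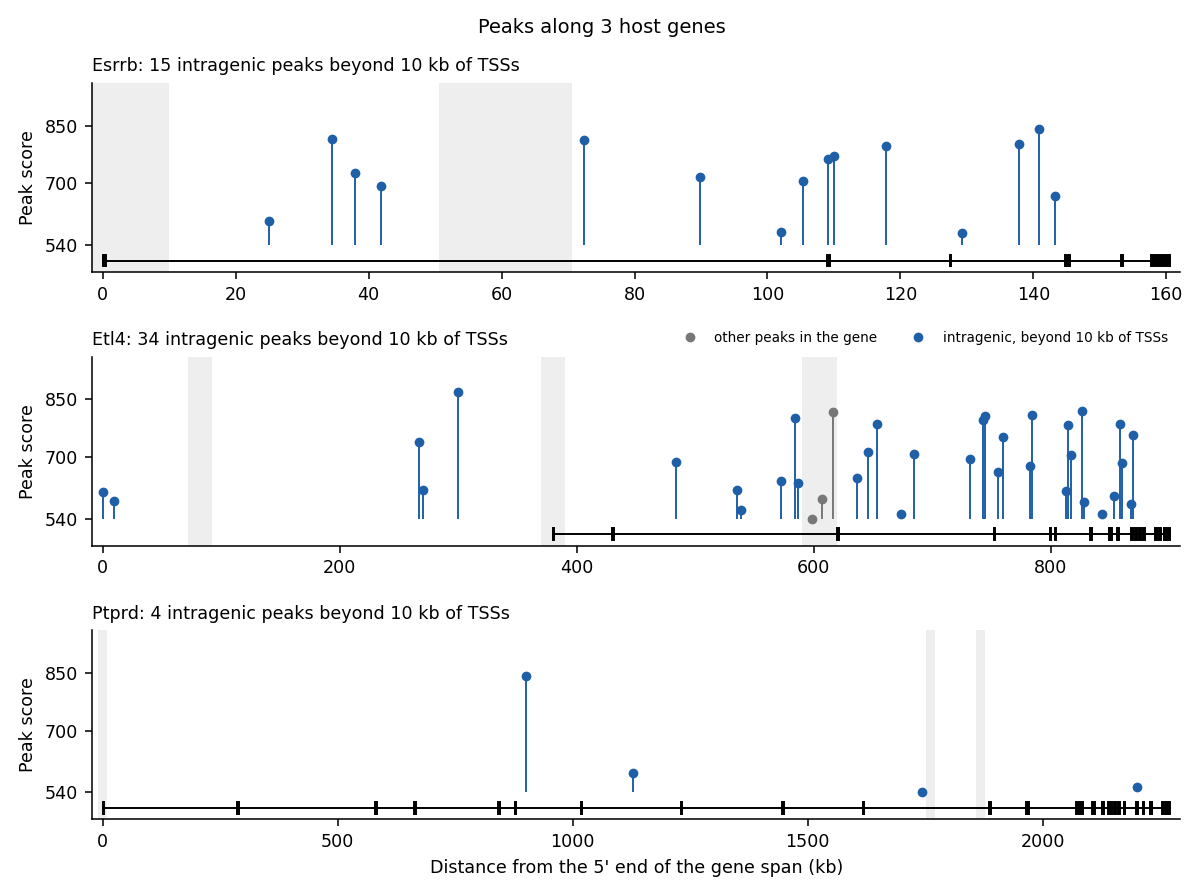
Peaks along Esrrb, Etl4 and Ptprd by distance from the 5′ end of the gene span (kb), with the peak score as height (stems start at 540). Blue marks intragenic distal peaks and grey other peaks, shading the sequence within 10 kb of a curated TSS and black boxes the exons of the longest curated transcript; Esrrb holds 15 peaks in 160.5 kb and Ptprd 4 in 2271 kb.

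Transcription factor genes of pluripotency were the densest of 8 gene lists. Of 30 genes 14 were autosomal and had distal span, in most of them short (median 5.14 kb), and 8 of the 14 were hosts. They held 35 peaks in 0.501 Mb, 69.9 per Mb (48.7 to 97.3), against 16.2 over all genes, and 3.44 times the number that their span classes would give. Without Esrrb the list had 54.1 per Mb, 2.6 times its class number. The median over its genes was 29.8 per Mb, against 24.9 in the signalling list and 20.2 in the list of chromatin regulators, both described below. These medians are not matched for span, as the median distal span was 76.8 kb in the signalling list and 55.9 kb in the chromatin list. Over all genes, density was 26.6 per Mb at distal spans up to 10 kb and 21.6 at 50 to 100 kb. The lists were chosen with earlier results of these data known. Etv5, an ETS factor downstream of FGF signalling, held 7 peaks with scores from 571 to 817 and had a promoter peak. The zinc finger gene Zfp462 held 5 (603 to 781). Tfcp2l1, a naive pluripotency factor, held 3 peaks in the second intron, with scores of 805, 701 and 811 and widths of 741, 268 and 703 bp. The nuclear receptor gene Nr5a2 held 2 with low scores (549 each). Etv4, Zfp143 and Zfp42 (Rex1) held 1 each, with 828, 562 and 636. Klf5, Sall4, Prdm14 and Rest held none, in distal spans of 4.72 kb or less. The median score over the list was 728, and 22 of the 35 peaks were above the median of the whole list of peaks, 696. Of all intragenic distal peaks, 46.5% were above it.

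Genes of LIF, FGF, BMP and Wnt signalling, the pathways that keep or end self-renewal in mESCs, held 61 peaks in 21 of 30 genes, 27.8 per Mb (21.2 to 35.6) and 1.41 times their class number. Tcf7l1, a repressor at Wnt targets, held 7 with a median score of 742, and Spred2, an inhibitor of the ERK cascade, 7 with a median of 592. The BMP receptor gene Acvr1 held 5, the FGF receptor gene Fgfr2 4, and Lifr, the LIF receptor gene, 3 with scores of 656, 654 and 540, of which the first lay at a predicted TSS. Jak1 (103.2 kb of distal span), the TGF-beta receptor gene Tgfbr2, Spred1 and Smad2 held none. The median score over this list was 666, and 23 of the 61 peaks were above 696, against 46.5% of all intragenic distal peaks.

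Chromatin and DNA methylation regulators held 55 peaks in 22 of 31 genes, 26.4 per Mb (19.9 to 34.3) and 1.33 times their class number. Kdm2b, a histone demethylase that binds CpG islands, held 9, the acetyltransferase gene Kat6b 6, and the DNA dioxygenase genes Tet2 and Tet1 5 and 3. Jarid2, a partner of Polycomb complex PRC2, held 3 in 180.4 kb with scores of 795, 759 and 655, where its class mean gives 3.41. Of the core PRC2 genes, Eed held 2 in 16.3 kb, and Ezh2 and Suz12 held none in 54.8 and 31.0 kb, where their class means give 1.19 and 0.717. The coactivator gene Ep300 held none in 55.9 kb. The median score over this list was 655, and 22 of the 55 peaks were above 696, against 46.5% of all intragenic distal peaks. Cohesin, its loader and release factors and CTCF were sparse as genes. They held 8 peaks in 4 of 13 genes, 8.44 per Mb (3.64 to 16.6) and 0.467 times their class number, with a median score of 626. Of these, 3 were in Stag1 and none in Smc3, Pds5a, Smc1b or Esco1.

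Neuronal adhesion and synapse genes, many of them among the longest of the genome, held many peaks in all but few per length. Of 46 genes 40 were hosts, and the 234 peaks in 50.8 Mb gave 4.61 per Mb (4.04 to 5.24). Their median distal span was 1049 kb, and the count was 0.794 times that of their span classes. These classes include the list's own genes, and the class above 1000 kb has only 49 genes and no upper limit. The ratio is therefore not against separate genes of like span. They varied widely among themselves. Auts2 held 20 peaks in 1076 kb, Dpp6 17 in 820.1 kb and Magi2 and Rbfox1 16 each, while Nrg3 and Kcnip4 held none in 1077 and 1049 kb. Ptprd, a receptor phosphatase with the largest distal span of all genes (2220.5 kb), held 4 peaks, where the mean of the class above 1000 kb gives 10.8. Their scores were 841, 589, 555 and 541, and the strongest lay within 1 kb of a predicted TSS. The cadherin gene Pcdh15 held 1 peak in 1533 kb, with a score of 556. Among the 10 genes with the largest distal span, the number of peaks went from 1 to 9 (Macrod2). The median score of the neuronal list was 683.5, near the 687 of all intragenic distal peaks, and 5.56% of its peaks held the CTCF consensus, near the 5.62% of all.

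Intragenic distal peaks were also placed in the 500 ZBTB21-responsive and 500 less-responsive chromatin loops that the study ranks, each taken from the outer edge of one 25-kb anchor to that of the other. All these loops are longer than 500 kb. Since the ranking made use of signals at ATAC-seq peaks, the classes are not independent of the list. Responsive loops held 2439 intragenic distal peaks (20.1%, 19.4 to 20.8) on 13.4% of the bases, 24.2 per Mb (23.3 to 25.2). Less-responsive loops held 259 (2.14%, 1.89 to 2.41) on 9.64% of the bases, 3.57 per Mb (3.15 to 4.04). Both shares were near those of all autosomal peaks, 19.7% and 2.48%.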

How the data were processed

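ATAC-seq libraries of 2 untreated V6.5 mESC replicates were made, per the labels, from viable cells with a Tn5 kit and selected for fragments of mono- and dinucleosome size. The authors deposited 1 pooled peak list with mm10 coordinates and a score, which is used here only to describe, filter and compare peaks within the list. The submitters' processing notes name cutadapt 2.6, Bowtie2 2.3.5.1 and MACS2 2.1.1, without their roles. For ATAC-seq, the peak caller, its settings and any shift for Tn5 are not given in the sources used here. No source describes the score. Its smallest value, 540, equals the scaled score for an IDR of 0.05, the threshold of the study's ChIP-seq peaks, and this match is the sole ground for reading it as an IDR score. Depth per library is unknown.

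RefSeq annotation of GRCm38, the assembly of mm10, gave gene spans, curated and predicted TSSs and sequence. Distances were taken from the nearest peak edge, gene parts from the peak centre in the longest curated transcript of a host, and composition and motifs from the central 300 bp. Densities are per Mb of sequence without N in which a peak could lie. The motifs were searched on both strands: the CTCF core consensus and the OCT4-SOX2 composite with ambiguity letters, the other 8 as spelled. Their definitions were loosened once after a look at match counts. Tiles were adjoining 300-bp windows that met no peak. A gene's count at its span class is its distal span times the mean density of all genes in that class, the gene itself included. Distances, gene overlaps, gene parts and the motif search were tested on simulated data (30 chromosomes, 2400 peaks, 7200 windows). The motif search was tested with other short patterns. In all, 0 values differed from a direct count, and densities were not part of this test. Python 3.11.15, numpy 2.4.6, pandas 2.3.3, scipy 1.17.1 and matplotlib 3.10.9 were used.

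The genes named were the 20 with the most peaks, the 10 with the most per 100 kb among those with 5 or more, the 10 with the largest distal span, the hosts of the 10 peaks with the highest score and of the 5 widest, and, in each of 8 lists, up to 8 genes with 3 or more peaks and up to 4 of the longest with none. Nr5a2, Zfp143 and Zfp42 complete the hosts of the pluripotency list, and they and Eed were named after their values were seen. The peaks and lists were chosen with earlier results of these data known. With 1 pooled list nothing was tested. Alternatives were other TSS distances, predicted TSSs, a stricter score, merged peaks, most of the peak in the gene, another transcript, whole peaks and loop anchors. The 786 peaks on X, Y and unplaced sequence, the degron samples and a ZBTB21 peak table, held here in shortened form, were not used.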

Additional observations from a re-analysis of the deposited data

How the results depend on the processing

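No paired analysis was possible because the 2 replicates were pooled into 1 list with no value per replicate, and for the same reason no replicate could be left out. Of 80 values of 12 results under the alternatives, 53 lay within the interval of the value reported, or within 1.5 times it for counts, and 27 did not. Restricting the list to peaks scored above its median left 5639 intragenic distal peaks in 3190 host genes, 28.2% of such autosomal peaks. By construction their median score rose to 760. Their median width was 567 bp, GC content 52.3%, octamer share 3.51%, share in responsive loops 21.2% and ratio of densities inside to outside genes 1.45. With the TSS limit at 5 kb the peaks made up 36.5% of the autosomal peaks, 87.0% in introns and 21.4% in the first intron. At 20 kb these shares were 21.6%, 89.8% and 16.4%, the density ratio was 1.56 and the CTCF share 5.12%. With predicted TSSs added the shares were 24.0%, 88.9% and 18.3%, and the density ratio was 1.57. Merging peaks within 500 bp gave a median width of 521 bp. Over the whole peak in place of the central window, the median GC content was 51.5%, the CTCF share 6.70% and the octamer share 4.37%. Among windows of 50 to 55% GC, an alternative chosen after seeing the data, the CTCF share was 6.24%. The anchors of the responsive loops alone held 1.70% of the peaks. The cause of these shifts was not tested. The number of peaks in pluripotency genes (35) ranged from 22 to 42 under the alternatives for which it was counted.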

Other observations

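Lists of genes of other tissues held intragenic distal peaks as well. Genes of blood cells held 67 in 16 of 23 genes, 17.4 per Mb (13.5 to 22.1) and 1.15 times their class number. Among them Elmo1, an activator of Rac, held 12, the transcriptional repressor gene Bach2 8 and the phosphatase gene Inpp5d 8 in only 90.2 kb of distal span, with a median score of 741.5. The signalling gene Dock2 held 7 with a median of 790, while Dock8, Ikzf2, Prkcq and Lyn held none. Genes of muscle held 45 in 14 of 22 genes, 11 per Mb (8.04 to 14.7) and 0.895 times their class number, with 7 each in the repair gene Dysf and the calcium release channel gene Ryr2 and none in the titin gene Ttn, whose distal span is 268.6 kb. Feeder fibroblast and matrix genes held 27 in 14 of 31 genes, 11.9 per Mb (7.84 to 17.3) and 0.643 times their class number. The TGF-beta binding gene Ltbp1 held 6 of these, the fibronectin gene Fn1 3 in 57.8 kb, and Cdh11, Col5a2, Col6a3 and Fap none. The median score of the peaks in the fibroblast list was 722, in the blood list 697 and in the muscle list 675.

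Over the 19 autosomes the density of intragenic distal peaks ranged from 13 per Mb of gene sequence beyond 10 kb of TSSs on chromosome 3 to 23.1 on chromosome 11, with a median of 16.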
